A study of Mus musculus with 19 samples.

Results

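Pericytes are the mural cells that sit on capillaries, wrapped in the same basement membrane as the endothelium. They were examined here in single-cell RNA sequencing of the tendon injury site of mice that form heterotopic ossification, bone in soft tissue after trauma. The cells were chosen by measured values, namely the UMIs (unique molecular identifiers, counts of captured transcripts) in each cell barcode. A pericyte was a barcode with at least 500 detected genes, at most 25% mitochondrial UMIs, a UMI of at least 3 of the 5 markers Rgs5, Kcnj8, Abcc9, Notch3 and Higd1b, and at most 1 UMI each of Myh11 (smooth muscle), Ptprc (leukocytes), Pdgfra (stromal cells) and Cdh5 (endothelium). The rule took 855 of the 39541 cells kept in 19 libraries.

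All libraries were described by one model, a partial-thickness dorsal burn together with transection of the Achilles tendon, and the tissue came from the tenotomy site. The groups were day 0 (4 libraries), day 3 (3 libraries), day 7 (4 libraries), day 21 (4 libraries) and p7N3 (4 libraries), in which mice also received p7N3, a CD47-activating peptide, at 10 mg/kg. The study's methods give young adult male C57BL/6J mice, and the study describes day 0 as tissue without injury, whereas the labels list the injury for day 0 too. The labels of replicates 1 to 3 name C57 and LysmCre/Tgfb1fx/fx mice without saying which library came from which, and those of replicate 4 name no strain, so genotype cannot be told apart within a group. Replicates 1 to 3 of p7N3 are given as day 7, and replicate 4 of p7N3 carries no harvest day. The study's reporting summary describes the single-cell replicates as made to capture variation between mice, while the labels do not tie a library to a mouse or state whether mice were pooled. Replicate 4, which day 3 lacks, is labelled in another form than replicates 1 to 3, and whether it was made in a separate batch is not given in the sources used here. Each p-value measures the spread between libraries.

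Pericytes contract and relax around capillaries through G protein-coupled receptors, ATP-sensitive potassium channels and cyclic GMP, they receive PDGF-B from endothelium through the receptor Pdgfrb and Notch ligands of endothelium through the receptor Notch3. After injury pericytes can detach, divide, lay down matrix and take up or lose contractile proteins. In musculoskeletal tissue, perivascular cells have been described as one possible source of cells of the skeletal lineage.

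The cells carried the transcripts by which pericytes are usually named. Rgs5, a regulator of G protein signalling, had a UMI in 842 pericytes (98.5%), Notch3 in 770 (90.1%), Kcnj8 and Abcc9, which form the potassium channel, in 744 and 742, and Higd1b in 678. These 5 values follow from the rule. Pdgfrb, which the rule did not use, had a UMI in 798 pericytes (93.3%), against 1.42% of endothelial cells at day 0 and 7.04% at day 3, the lowest and highest of the 5 groups. Over the 12 libraries of day 7, day 21 and p7N3, the mean level of Pdgfrb in CPM (UMIs scaled to one common total per library) was 477 in pericytes, 323 in smooth muscle cells, 72.9 in stromal cells and 4.88 in endothelial cells. The mitochondrial subunit Cox4i2 showed 323, 270, 2.07 and 1.46 CPM in the same order, and the matrix protein vitronectin (Vtn) 223, 152, 23.6 and 2.23 CPM. On a list of 40 genes associated with pericytes, none of which the rule used, 35 reached 20 CPM or more in pericytes, and 18 of these were highest in pericytes among the cell types compared. Cspg4, which encodes the classical marker NG2, was lower in pericytes (60.6 CPM) than in smooth muscle cells (106 CPM).

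Smooth muscle was the nearest cell type. Acta2 and Tagln, genes of the actin contractile apparatus, reached 13210 and 6788 CPM in smooth muscle cells against 3240 and 1240 CPM in pericytes. Kcnj8 (590 against 225 CPM) and the globin Cygb (720.5 against 290.4 CPM) lay the other way. Of 1890 cells with at least 3 markers, 740 had over 1 UMI of Myh11 and 245 over 1 UMI of Cdh5. A further 271 pericytes (31.7%) had exactly 1 UMI of Myh11, and 170 cells with 2 UMIs fell just outside. These levels describe what the rule selected and were not tested.

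**Figure D1:**
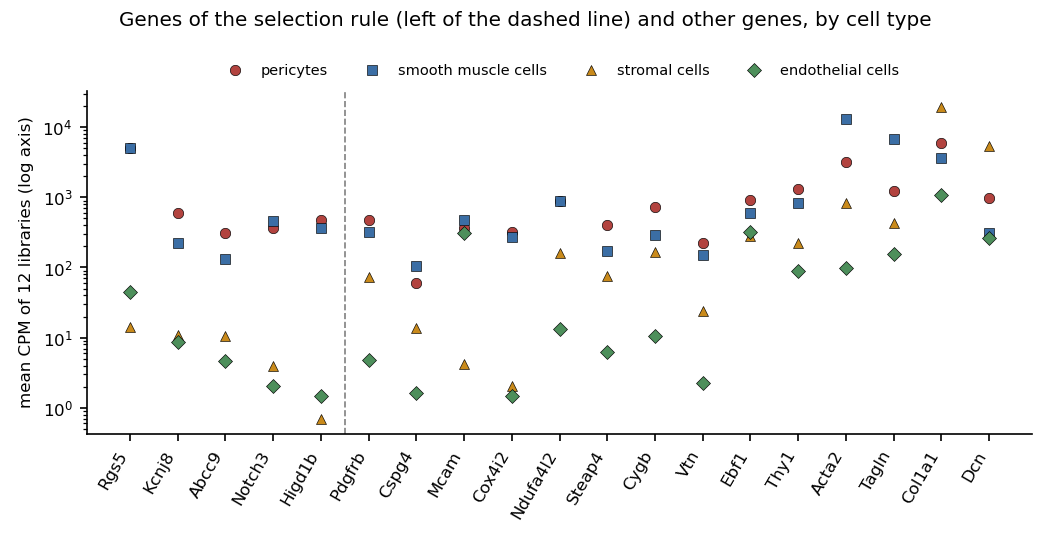
Mean CPM over the 12 libraries of day 7, day 21 and p7N3 (log axis) of genes in pericytes, smooth muscle cells, stromal cells and endothelial cells, with the 5 markers of the rule left of the dashed line. Pdgfrb was highest in pericytes (477 CPM), Acta2 in smooth muscle cells (13210 CPM), and Col1a1 and Dcn in stromal cells.

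The number of markers also graded the cells. Of the 855, 500 had all 5 markers, 211 had 4 and 144 had 3, and 508 cells with 2 markers fell just outside. Pooled over libraries, Pdgfrb was at 529 CPM in 5-marker cells, 231 CPM in 3-marker cells and 80.4 CPM in 2-marker cells. The stromal proteoglycan gene Dcn ran the opposite way, at 146, 3482 and 5146 CPM. In all, 169 pericytes (19.8%) had 3 or more UMIs of Dcn, namely 1 of 36 at day 0, 7 of 29 at day 3, 57 of 332 at day 7 (17.2%), 56 of 185 at day 21 (30.3%) and 48 of 273 with p7N3 (17.6%). Whether these were pericytes that expressed Dcn, pericytes captured with a stromal cell, or stromal cells near the rule's edge was not tested, so list counts between day 21 and day 7 are also given for cells with all 5 markers (5-marker cells) or for cells with fewer than 3 UMIs of Dcn, or for both. The 19 libraries shared 999 cell barcodes over 171 pairs, where random draws from the barcode set would share 992, and 2 barcodes were pericytes in both libraries.

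The number of pericytes recovered differed between time points. There were 6, 9, 11 and 10 pericytes in the day 0 libraries, 11, 12 and 6 at day 3, 67, 100, 110 and 55 at day 7, 51, 30, 29 and 75 at day 21, and 80, 78, 49 and 66 with p7N3. As a share of kept cells, pericytes were 0.598%, 1.58%, 0.990% and 1.14% at day 0, 0.559%, 0.562% and 0.355% at day 3, and 2.05%, 2.79%, 3.00% and 1.89% at day 7. The shares were 3.32%, 3.31%, 3.07% and 3.83% at day 21 and 2.90%, 2.17%, 1.93% and 2.61% with p7N3. Every day 3 library was below every day 0 library, and every day 7 library was above every day 0 library and below every day 21 library, while p7N3 overlapped day 7. This order depended on the rule and on the cells in the denominator. With at least 4 markers day 3 and day 0 overlapped (difference -0.345 percentage points, p = 0.114, exact permutation test). Among cells without a UMI of Ptprc day 3 overlapped day 0, and day 21 overlapped day 7 (difference 0.273 percentage points, p = 0.400, exact permutation test). At no more than 10% mitochondrial UMIs day 21 and day 7 also overlapped (difference 0.924 percentage points, p = 0.0571, exact permutation test). After each cell was thinned to 1500 UMIs, which left out 298 shallower cells of day 0 and 0 of the other groups, the mean shares were 1.19% at day 0, 0.427% at day 3, 2.24% at day 7 and 4.26% at day 21, without overlap between these groups.

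The mean share was 1.08% ± 0.404 (SD, n = 4) at day 0, 0.492% ± 0.119 (SD, n = 3) at day 3, 2.44% ± 0.543 (SD, n = 4) at day 7 and 3.38% ± 0.323 (SD, n = 4) at day 21. The differences from day 0 of 1.36 percentage points at day 7 and 2.31 at day 21, and that of 0.947 between day 21 and day 7, each gave p = 0.0286 in a two-sided exact permutation test, the smallest that 4 against 4 libraries allow, and an adjusted p = 0.0571 over the 6 comparisons made. Comparisons with the 3 day 3 libraries cannot go below p = 0.0571 in this exact test, which is the value both gave. Without any UMI of the exclusion genes the differences fell to 0.699 (p = 0.114), 0.744 (p = 0.0857) and 0.0454 percentage points (p = 0.857, exact permutation tests). Shares move with every other cell type: among cells without a UMI of Ptprc, day 3 held 1.33% ± 0.644 pericytes and day 0 1.17% ± 0.488 (SD). The yield of a digestion and the number of cells in the tissue cannot be told apart here.

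Set against endothelium, the order was different. There were 3.96 ± 0.961 pericytes per 100 endothelial cells at day 0, 41.8 ± 16.3 at day 3, 50.7 ± 14.4 at day 7, 26.5 ± 10.1 at day 21 and 47.1 ± 14.1 with p7N3 (SD). The 4 day 0 libraries, at 2.61 to 4.79, lay below all others. Only 71 endothelial cells were recovered at day 3, against 917 at day 0. Pericytes had a median of 2478 UMIs at day 0, 14569 at day 3, 8372.5 at day 7 and 7839 at day 21. Unlike the shares, the ratios were not computed after thinning, and the part of depth in them was not tested. Per 100 smooth muscle cells there were 28.9 ± 16.7 pericytes at day 0, 51.0 ± 20.3 at day 3, 146 ± 20.4 at day 7, 43.9 ± 3.49 at day 21 and 139.5 ± 16.2 with p7N3 (SD). By this ratio every day 21 library (39.7 to 47.6) was below every day 7 library (126 to 172), the opposite order to the share of all cells. Myh11 split these cell types, with at most 1 UMI in pericytes and at least 2 in smooth muscle cells. In pericytes Myh11 was at 27.9 unscaled CPM at day 7 and 43.1 at day 21. The part of this split in the ratio was not tested.

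**Figure D2:**
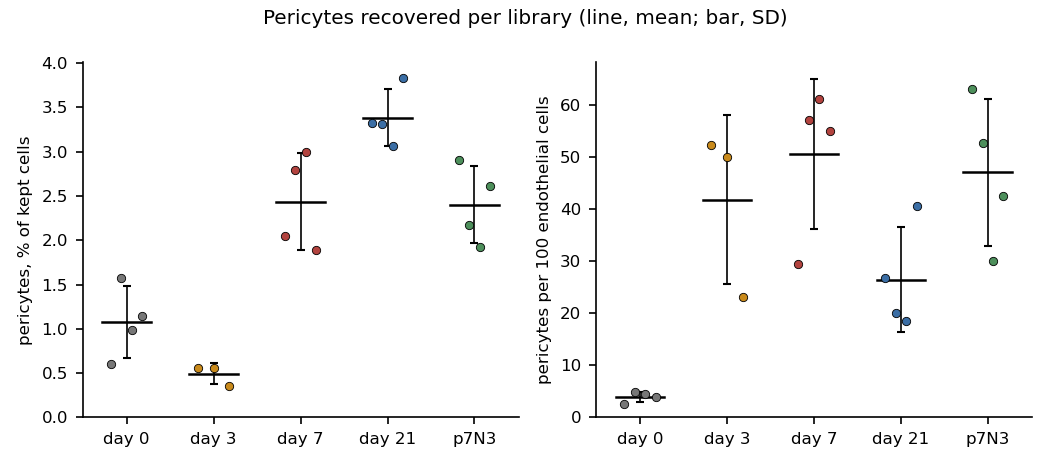
Pericytes as a percentage of kept cells and per 100 endothelial cells, with 1 point per library, the group mean as a line and the SD as a bar. The share was lowest at day 3 and highest at day 21, whereas the ratio to endothelial cells was lowest at day 0 (2.61 to 4.79).

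Depth set what could be compared. Gene expression was tested on UMIs summed over the pericytes of each library, in the 16 libraries with at least 10 pericytes. These left 2 libraries at day 0 (26573 and 39535 UMIs), 2 at day 3 (179191 and 203672 UMIs) and 4 in each other group (259563 to 1166096 UMIs). Genes were called at an adjusted p under 0.05 in edgeR's quasi-likelihood test over the 8800 genes tested, and levels below are CPM after TMM scaling, except sums of lists and levels called unscaled. In these summed values a change in the mix of cells and a change in RNA per cell cannot be told apart.

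The p7N3 comparison asks whether the CD47-activating peptide went with another pericyte transcriptome in injured tissue. The study describes PBS-injected controls, but the labels name no vehicle for the day 7 libraries used here, so injection and peptide cannot be told apart. CD47 is a receptor for thrombospondin-1 (Thbs1) and the ligand that tells phagocytes, through Sirpa, to spare a cell. The pericyte share was 2.40% ± 0.436 (SD, n = 4) with p7N3 and 2.44% ± 0.543 at day 7 (difference -0.0333 percentage points, p = 0.886, exact permutation test). After each cell was thinned to 1500 UMIs the shares were 1.81% and 2.24%, and the groups still overlapped (difference -0.433 percentage points, p = 0.171, exact permutation test). No gene was called in either direction, 0.0% higher and 0.0% lower. At an unadjusted p under 0.05 there were 458 genes (5.20%), DESeq2 called 1, and the smallest adjusted p in edgeR was 0.377, for Stac. None of the 18 gene lists held a called gene.

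Cd47 was at 215, 188, 194 and 210.5 CPM in the 4 day 7 libraries and 219.8, 254, 263 and 225 CPM with p7N3. The p7N3 libraries were all higher, by little. The log2 fold change was 0.25 ± 0.14 (SE), adjusted p = 0.957, with a 95% interval of -0.03 to 0.52. Its ligand Thbs1 was at 149.7, 147, 134 and 250.1 CPM at day 7 and 152, 109, 249 and 221 CPM with p7N3, and the groups overlapped. The interval of its change was -0.50 to 0.67 on the log2 scale, and that of Pdgfrb -0.37 to 0.21.

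Among the larger changes that did not pass, Pdgfa, a PDGF ligand, was at 417 CPM with p7N3 and 294 CPM at day 7 (interval 0.18 to 0.83, adjusted p = 0.666). The endothelin receptor gene Ednrb was at 379.9 and 221 CPM (interval 0.03 to 1.51), and the elastin gene Eln at 111 and 306 CPM (interval -2.90 to 0.11). The Eln change of -1.39 was -0.40 in 5-marker cells and -0.18 in cells with fewer than 3 UMIs of Dcn. The cGMP cyclase subunit Gucy1a3 was at 138 and 188 CPM (interval -0.74 to -0.12). Across the 1717 genes of 100 CPM or more the median standard error was 0.157 on the log2 scale. Sums of the same depth were simulated with changes only in genes of 20 CPM or more. Of these changes, 61% of 2-fold and 100% of 4-fold ones were recovered for this comparison. Changes of 2-fold and less could be missed at this depth, and recovery was not simulated for genes at lower levels.

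**Figure D3:**
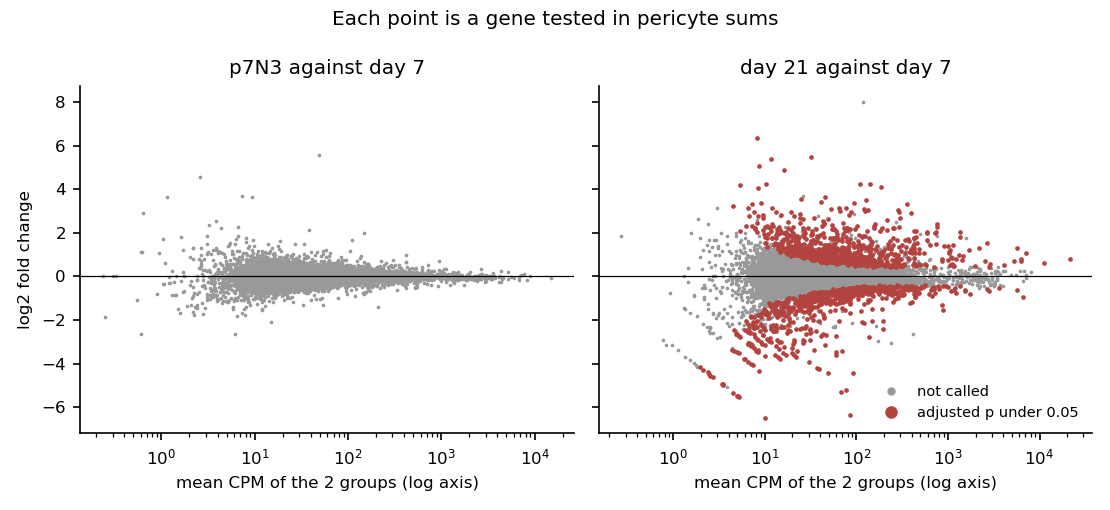
Log2 fold change of each tested gene against the mean CPM of the 2 groups (log axis) for p7N3 against day 7 and for day 21 against day 7, both with the same 4 day 7 libraries. Called genes are red: 0 for p7N3 and 1438 for day 21.

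Between day 7 and day 21 39 of 54 cell cycle genes fell in pericytes of the injury site, and 25 of 40 immediate early and heat shock genes, 19 of 49 cytokine genes and 7 of 33 vasoactive genes rose. In all, 1438 of 8800 genes were called, 755 higher (8.58%) and 683 lower (7.76%) at day 21. The median change of all genes was -0.00114 on the log2 scale. With replicates 1 to 3 only, 852 genes were called, 473 higher and 379 lower. Of the 1438 genes, 1357 could be tested without each of the 8 libraries in turn, 695 were called every time and 0 changed sign. In 5-marker cells 992 of 6415 genes were called, 535 higher and 457 lower. In cells with fewer than 3 UMIs of Dcn 1260 of 7681 were called, 654 higher and 606 lower.

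Of 54 cell cycle genes tested, 39 fell and 0 rose, with a median change of -2.28. Ube2c, the ubiquitin-conjugating enzyme that works with the anaphase-promoting complex, was at 51.3, 84.8, 155 and 161 CPM in the day 7 libraries and 10.8, 3.54, 0 and 14.2 CPM at day 21. The day 21 libraries were all lower than the day 7 libraries. Its log2 fold change was -3.61 ± 0.63 (SE), adjusted p = 0.00311. Birc5, the survivin subunit of the chromosomal passenger complex, was at 61.3, 124, 132 and 203 CPM and 8.63, 0, 0 and 25.2 CPM, again without overlap (-3.44 ± 0.63 (SE), adjusted p = 0.00397). Cdca8, which partners survivin in that complex, changed by -3.94 ± 0.50 and stathmin (Stmn1), a microtubule regulator, by -2.79 ± 0.34. The replication-dependent histone gene Hist1h2ap changed by -6.34 ± 1.78 (SE), adjusted p = 0.0317. This call was lost without day 7 replicate 4 and without any 1 day 21 library (adjusted p between 0.0639 and 0.0918). It was also lost, with a change no smaller, in 5-marker cells (-6.89, adjusted p = 0.0922) and with fewer than 3 UMIs of Dcn (-7.25, adjusted p = 0.0728). In cells with all 5 markers 24 of 49 cycle genes fell and 2 rose, and in cells with fewer than 3 UMIs of Dcn 32 of 50 fell and 1 rose.

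Genes of the cell cycle share promoter elements, and the promoters of 2 genes that fell together are shown for that reason. CCAAT is the box bound by NF-Y, and TTTGAA is the core of the cell cycle genes homology region. Each sequence is the 250 bases before the RefSeq start, 5′ to 3′ on the gene's strand in build GRCm38.p6, with every match to CCAAT or TTTGAA on either strand in capitals. Ube2c lies at chr2:164769679-164769928 on the plus strand and Cdk1, the kinase that starts mitosis, at chr10:69352913-69353162 on the minus strand.
Ube2c: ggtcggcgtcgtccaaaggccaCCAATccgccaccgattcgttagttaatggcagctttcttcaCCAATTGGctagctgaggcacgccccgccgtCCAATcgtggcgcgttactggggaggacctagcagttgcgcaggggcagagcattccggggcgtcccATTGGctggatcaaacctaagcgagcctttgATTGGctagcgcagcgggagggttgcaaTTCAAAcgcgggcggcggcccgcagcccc
Cdk1: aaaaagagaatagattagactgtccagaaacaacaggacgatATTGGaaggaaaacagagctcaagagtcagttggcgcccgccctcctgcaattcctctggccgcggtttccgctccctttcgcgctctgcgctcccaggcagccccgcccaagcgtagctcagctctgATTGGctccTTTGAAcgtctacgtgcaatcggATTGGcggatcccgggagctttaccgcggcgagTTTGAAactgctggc
The Ube2c window held 6 matches to CCAAT, of which 2 overlap, and 1 to TTTGAA, and the Cdk1 window 3 and 2. Of the 54 tested cycle genes, 42 had a window in the RefSeq table. CCAAT was present in 31 of these (73.8%) against 34.5% of all 27025 windows, and TTTGAA in 9 (21.4%) against 16.3%. The Birc5 window held neither. A match describes letters in these windows and not a site of binding.

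Immediate early and heat shock genes moved the other way. Of 40 tested, 25 rose and 0 fell, with a median change of 1.07. Zfp36, which encodes the RNA-decay factor tristetraprolin, was at 264, 220.4, 296 and 256 CPM at day 7 and 1152, 1729, 1349 and 842 CPM at day 21. Every day 21 library was above every day 7 library, and Zfp36 changed by 2.29 ± 0.32 (SE), adjusted p = 0.000441. Atf3, a stress transcription factor, changed by 2.23 ± 0.41, the Krüppel-like factor Klf4 by 2.07 ± 0.42 and the orphan receptor Nr4a2 by 2.16 ± 0.42. The count was 23 of 39 in cells with all 5 markers and 25 of 40 in cells with fewer than 3 UMIs of Dcn. Nr4a2 was no longer called in 5-marker cells (0.81, adjusted p = 0.247). The summed level of the list was also high in the day 0 libraries, at 48583 and 29695 CPM against 10873 to 14272 CPM at day 7 and 19503 to 26460 CPM at day 21. These genes respond to enzymatic dissociation, and the part that tissue handling had in the difference was not tested.

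Of 49 cytokine, chemokine and NF-kB genes 19 rose and 0 fell, with a median of 0.71. Cxcl10, a chemokine for T cells, was at 15.7, 5.98, 36.6 and 8.93 CPM at day 7 and 379.7, 67.2, 186 and 51.9 CPM at day 21. The day 21 libraries were higher but spread over a wide range. Its change (3.37 ± 0.84 (SE), adjusted p = 0.018) lost the call without day 7 replicate 2 (adjusted p = 0.0526), day 7 replicate 4 (0.0531) or day 21 replicate 1 (0.0848). Irf1, the transcription factor of the interferon response, changed by 2.32 ± 0.46 (SE), adjusted p = 0.00521. Cxcl12, which retains CXCR4-bearing cells, changed by 1.62 ± 0.42 (SE), adjusted p = 0.0213, and by 1.45 (adjusted p = 0.0573) without day 21 replicate 3. In 5-marker cells 22 of 39 genes of the list rose, and with fewer than 3 UMIs of Dcn 22 of 43 rose and 1 fell. Of 32 interferon response genes 2 rose and 4 fell, the latter including the immunoproteasome subunit Psmb8 (-1.54 ± 0.26). In 5-marker cells 3 of 25 interferon response genes rose and 2 fell, and with fewer than 3 UMIs of Dcn 2 of 29 rose and 3 fell.

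The vasoactive list holds receptors, channels and genes of G protein and cGMP signalling, and 7 of its 33 tested genes rose and 0 fell. Rgs16, Rgs2 and Rgs4, regulators of G protein signalling, were among those that rose. Npy1r, the receptor for neuropeptide Y released by sympathetic nerves, was at 42.8, 14.96, 14.7 and 14.03 CPM at day 7 and 88.5, 131, 170.1 and 92.9 CPM at day 21. Day 7 replicate 1 stood above the other 3 day 7 libraries and still below every day 21 library. The change was 2.45 ± 0.30 (SE), adjusted p = 3.14e-06. Rgs16, which shortens G protein signals, was at 137, 205, 358 and 265 CPM and 1236, 1269.5, 1539 and 1056 CPM. The groups were separated by a wide gap, and Rgs16 changed by 2.39 ± 0.45 (SE), adjusted p = 0.00398. Kcne4, a potassium channel subunit, changed by 1.34 ± 0.34. In 5-marker cells 10 of 27 rose, and in cells with fewer than 3 UMIs of Dcn 11 of 31.

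Of 26 contractile genes tested, 3 rose and 2 fell, both shares near those of all genes. Tagln (transgelin) was at 663, 1011, 1252 and 1123 CPM at day 7 and 1901, 2019, 2062 and 1661 CPM at day 21, without overlap (0.91 ± 0.17 (SE), adjusted p = 0.000256). Lmod1 (leiomodin) and Synpo2, both actin-associated, changed by 1.31 ± 0.26 and 1.34 ± 0.28. Acta2, smooth muscle actin, was at 2171, 3280.5, 4235 and 4446 CPM and 3482, 3101, 3499.9 and 2953 CPM, and the groups overlapped. Des (desmin, the intermediate filament) was at 774, 769, 750.0 and 936 CPM and 563, 668, 575 and 530.5 CPM. All day 21 libraries were lower, but the change (-0.47 ± 0.16 (SE), adjusted p = 0.0428) was small and was lost without any 1 of 7 libraries, at adjusted p up to 0.151 (without day 7 replicate 4), and in 5-marker cells (-0.24, adjusted p = 0.274). In 5-marker cells 9 of 23 contractile genes rose and 0 fell, and in cells with fewer than 3 UMIs of Dcn 7 of 26 rose and 0 fell.

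Among 38 genes associated with pericytes 6 rose and 3 fell, with a median of 0.09, 12 of 36 rose and 0 fell in 5-marker cells, and 12 of 37 rose and 1 fell with fewer than 3 UMIs of Dcn. Vtn was at 234, 236, 204 and 119 CPM at day 7 and 222, 368, 385 and 334 CPM at day 21. The groups overlapped, and the change (0.71 ± 0.19 (SE), adjusted p = 0.0124) was lost without day 21 replicate 2 (adjusted p = 0.0518) or replicate 3 (0.0525). Cox4i2 was at 336, 423, 502 and 457 CPM and 250.3, 240.5, 170.1 and 296 CPM, lower in all day 21 libraries (-0.82 ± 0.16 (SE), adjusted p = 0.000603), and was not called in 5-marker cells (-0.34, adjusted p = 0.237). Colec11, a collectin, changed by 2.80 ± 0.36 (SE), adjusted p = 8.6e-05. Pdgfrb was at 536, 486, 437 and 395 CPM and 531, 615, 733 and 513 CPM. These values overlapped, and the change did not pass (0.36 ± 0.15 (SE), adjusted p = 0.0989), whereas it passed in 5-marker cells (0.78, adjusted p = 0.000158) and in cells with fewer than 3 UMIs of Dcn (0.69, adjusted p = 0.00148).

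Several of the largest increases were in single genes outside the main groups. The peptide hormone gene Cck was at 14.3, 0, 28.1 and 2.55 CPM at day 7 and 222, 226, 158 and 212 CPM at day 21. The difference was larger than the spread in either group (4.24 ± 0.56 (SE), adjusted p = 0.000421). Procr, the receptor for protein C, was at 94.1, 70.8, 125 and 82.9 CPM and 837, 697, 863 and 425 CPM, with no overlap (2.91 ± 0.39 (SE), adjusted p = 0.000473). Thrombomodulin (Thbd), the cofactor that turns thrombin towards protein C, changed by 3.00 ± 0.50 (SE), adjusted p = 0.00187, and the retinoic acid-degrading enzyme Cyp26b1 by 2.98 ± 0.61 (SE), adjusted p = 0.0059.

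The matrix genes depended on which cells were counted. Of 51 interstitial matrix genes 27 rose and 3 fell, with a median of 0.71, but in 5-marker cells 7 of 49 rose and 8 fell (median -0.08) and in cells with fewer than 3 UMIs of Dcn 10 of 50 rose and 7 fell (median -0.01). Dcn is itself on this list and among the genes that rose, so leaving out cells by Dcn selects on a gene of the list. The proteoglycan lumican (Lum) was at 261, 313, 203 and 163 CPM at day 7 and 859, 1245, 324 and 1371 CPM at day 21. All day 21 libraries were higher, and Lum changed by 2.02 ± 0.45 (SE), adjusted p = 0.0119. In 5-marker cells its change was -0.01, adjusted p = 0.997. Fibromodulin (Fmod), a collagen-binding proteoglycan of tendon, was at 25.7, 25.9, 15.9 and 12.8 CPM and 306, 686, 93.2 and 301 CPM, with a change (4.08 ± 0.58 (SE), adjusted p = 0.000751) that was 1.53 with fewer than 3 UMIs of Dcn. Thbs1 was at 149.7, 147, 134 and 250.1 CPM and 926, 771, 547 and 611 CPM, changed by 2.07 ± 0.30 (SE), adjusted p = 0.000495, and was not called in 5-marker cells (1.23, adjusted p = 0.0867). The metalloproteinases Adamts1 and Adamts4, which cut proteoglycans, changed by 2.25 ± 0.37 and 2.12 ± 0.33.

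Of 37 genes of cartilage and bone 19 passed the expression filter, and 11 of these rose and 0 fell. A gene low at day 7 could pass the filter through its day 21 level alone, so this count does not describe the whole list. Comp, a protein of tendon and cartilage, changed by 4.23 ± 0.81 (SE), adjusted p = 0.00519 and aggrecan (Acan) by 3.11 ± 0.65 (SE), adjusted p = 0.00806, and Acan was not called without pericytes of over 3 times their library's median UMIs (1.61, adjusted p = 0.101). In 5-marker cells 1 of 5 tested rose, and with fewer than 3 UMIs of Dcn 1 of 8 rose and 1 fell. Col2a1, the cartilage collagen, was at 2.16, 873, 40.5 and 20.5 CPM in the 4 day 21 libraries and was not called (adjusted p = 0.104). Acan was at 151, 141, 36.5 and 48.8 CPM in the same libraries.

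Markers of other cells also changed. Those of fibroblasts and tenocytes share genes with the interstitial matrix list, among them Col1a1, Col3a1 and Fmod. Their sums are therefore not independent of that list. The summed level of 11 fibroblast and stromal markers in pericytes was 11317 to 17307 CPM at day 7 and 16740 to 38852 CPM at day 21, with Col3a1 and Col1a1 the most abundant. In endothelial cells of the same libraries it went from a mean of 1981 to 6208 CPM. The 8 tenocyte and chondrocyte markers were at 33.0 to 154 CPM in pericytes at day 7 and 319.8 to 2816 CPM at day 21, with the highest value in day 21 replicate 2 and Fmod the most abundant. The part of stromal RNA in the matrix and skeletal counts was not tested beyond the 2 restrictions above. The 12 myeloid markers went from a mean of 1171 to 203 CPM in pericytes and from 933 to 275 CPM in endothelial cells, with Lyz2 the most abundant. S100a8 and S100a9, which encode the calprotectin of neutrophils, are on this list. S100a8 was at 218, 99.7, 133 and 142 CPM at day 7 and 6.47, 0, 8.10 and 1.57 CPM at day 21, a change of -5.23 ± 0.42 (SE), adjusted p = 1.03e-07, and its unscaled mean in endothelial cells went from 47.3 to 4.78 CPM.

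In the pathways that join pericytes to endothelium, Notch showed 1 call among 19 genes. The target gene Hes1 was at 205, 168, 206 and 171 CPM at day 7 and 293, 343, 535 and 334 CPM at day 21. All day 21 libraries were higher (0.99 ± 0.23 (SE), adjusted p = 0.00751). In 5-marker cells 2 of 15 Notch genes rose and 0 fell, and with fewer than 3 UMIs of Dcn 3 of 18 rose and 1 fell. Of 7 PDGF genes 3 rose and 1 fell, the ligand Pdgfc among the former at 16.5 against 3.66 CPM (2.28 ± 0.62 (SE), adjusted p = 0.00806). One restriction left 1 of 5 PDGF genes higher (5-marker cells) and the other 2 of 6 (fewer than 3 UMIs of Dcn), with 0 lower. Of 27 VEGF, angiopoietin and guidance genes 5 rose and 2 fell, against 4 and 1 of 15 in 5-marker cells and 4 and 2 of 18 with fewer than 3 UMIs of Dcn. TGF beta and BMP signalling showed 15 of 41 higher and 0 lower. Fst (follistatin), which binds activins, was at 96.9, 67.8, 61.1 and 37.0 CPM and 216, 470.3, 320.0 and 253 CPM, without overlap (2.24 ± 0.45 (SE), adjusted p = 0.0059). Bmp2 changed by 1.76 ± 0.24 and Id4, an inhibitor of basic helix-loop-helix factors, by 2.20 ± 0.37. In 5-marker cells 7 of 32 TGF beta and BMP genes rose and 1 fell, and with fewer than 3 UMIs of Dcn 11 of 38 rose and 1 fell.

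Basement membrane genes rose in 7 of 22 and fell in 1, among them the laminin chain Lamb2 (1.36 ± 0.18 (SE), adjusted p = 2.41e-06) and, lower, Col15a1 (-1.18 ± 0.29 (SE), adjusted p = 0.015). With fewer than 3 UMIs of Dcn 6 of 21 rose and 1 fell. Of 78 genes of oxidative phosphorylation 16 fell and 1 rose (median -0.19), and 14 fell and 1 rose with fewer than 3 UMIs of Dcn, with Cox5a at -0.76 ± 0.15. Among 34 hypoxia and glycolysis genes 5 fell and 2 rose, enolase (Eno1) changing by -0.83 ± 0.16, whereas 2 of 25 fell and 2 rose in 5-marker cells and 3 of 30 fell and 2 rose with fewer than 3 UMIs of Dcn. Of 22 progenitor-associated genes 6 rose and 2 fell, and 5 of 20 rose and 0 fell in 5-marker cells. Of CD47 and its 10 partners, 4 rose, Thbs1 and Cav1 (1.07 ± 0.21) among them, and Cd47 itself did not pass, at 252, 194, 247 and 247 CPM at day 21 (0.23 ± 0.15 (SE), adjusted p = 0.312). Of 9 genes of this list tested, 1 rose in 5-marker cells and 3 with fewer than 3 UMIs of Dcn, and Thbs2, which had risen, was called in neither (0.45, adjusted p = 0.164 and 0.18, adjusted p = 0.641).

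**Figure D4:**
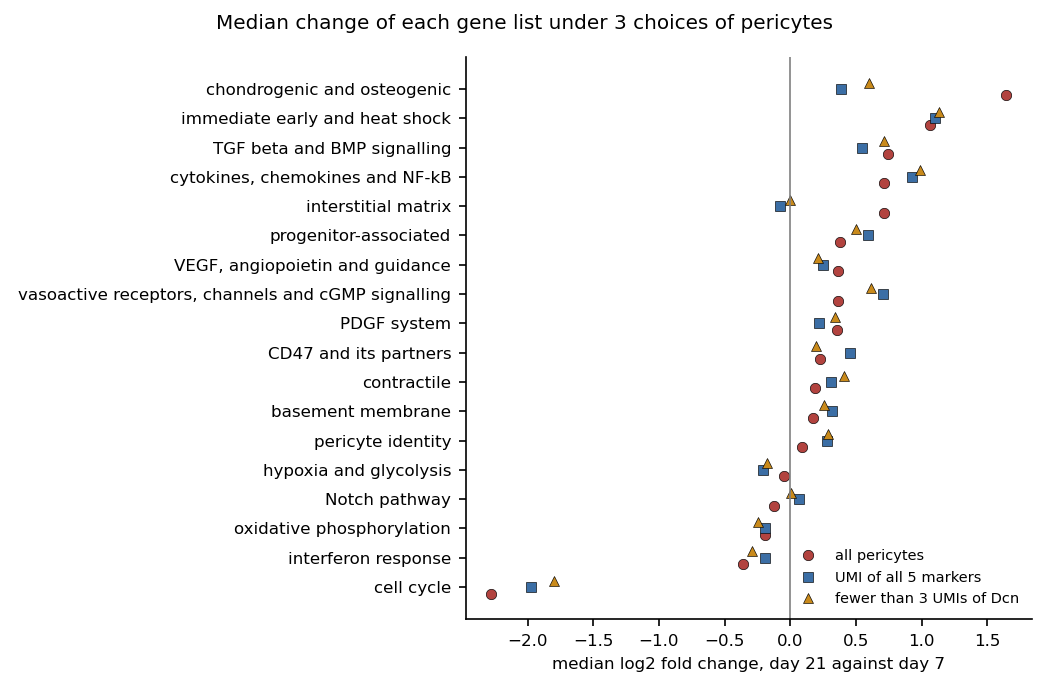
Median log2 fold change of each gene list between day 21 and day 7, for all pericytes, for cells with a UMI of all 5 markers and for cells with fewer than 3 UMIs of Dcn. Cell cycle (-2.28) and immediate early genes (1.07) keep their side in all 3, whereas interstitial matrix moves from 0.71 to -0.08 and -0.01.

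**Figure D5:**
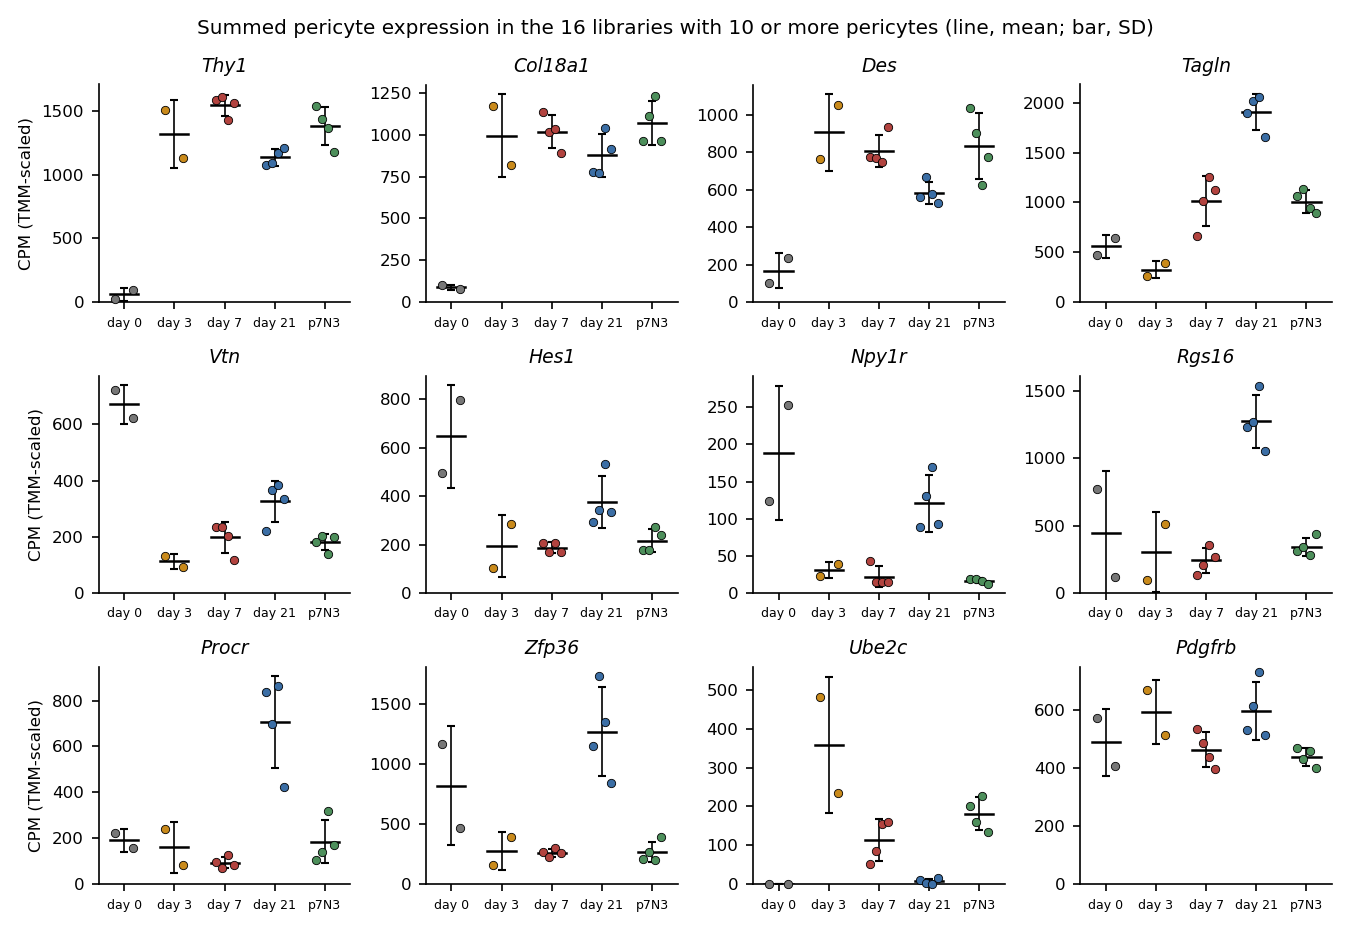
CPM of 12 genes in summed pericytes of the 16 libraries with at least 10 pericytes, with the group mean as a line and the SD as a bar. Thy1 and Col18a1 were lowest in the 2 day 0 libraries, Rgs16, Procr and Zfp36 were higher in every day 21 library than in any day 7 library, and Ube2c was at 0 in both day 0 libraries and at most 14.2 CPM at day 21.

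Comparisons with day 0 rested on 21 pericytes with 66108 UMIs, and 1105 of the 8800 genes (12.6%) had at least 10 UMIs there. Against day 0, 545 genes were higher (6.19%) and 93 lower (1.06%) at day 3, 640 higher (7.27%) and 137 lower (1.56%) at day 7, and 438 higher (4.98%) and 34 lower (0.386%) at day 21. The median change of all genes was 0.60, 0.58 and 0.59 on the log2 scale, and more genes were called higher than lower. Of the 1105 genes, 234 were higher (21.2%) and 72 lower (6.52%) at day 3, 271 higher (24.5%) and 94 lower (8.51%) at day 7, and 196 higher (17.7%) and 23 lower (2.08%) at day 21, with medians of 0.32, 0.33 and 0.37. A separate fit and scaling of the 1105 genes alone gave medians of -0.03, -0.03 and -0.04 and 164 higher and 174 lower at day 3, 169 and 187 at day 7, and 79 and 70 at day 21. With RLE scaling of all 8800 genes the split was 321 and 125, 283 and 168, and 166 and 47. With only the 2 groups fitted, more genes were lower than higher at day 3 (82 higher and 143 lower of 1962). The same held with DESeq2 at day 7 (215 higher and 237 lower of 5726). With at least 5 pericytes in a library 1193, 1369 and 913 genes were called at days 3, 7 and 21. The counts rested on both day 0 libraries. Without day 0 replicate 3 there were 275, 303 and 152 calls in all at days 3, 7 and 21, without day 0 replicate 4 there were 319, 360 and 201, and with replicates 1 to 3 only, which leaves replicate 3 alone at day 0, there were 385, 381 and 260. Without day 21 replicate 4 there were 299 at day 21. The comparisons share the same 2 day 0 libraries, and list medians are therefore given only over genes with at least 10 UMIs at day 0. Sums of this depth were also simulated with changes only in genes of 20 CPM or more. Of these changes, 6% of 2-fold and 31% of 4-fold ones were recovered for day 3. The shares were 14% and 33% for day 7 and 6% and 41% for day 21, and 11.3% of the calls for day 7 were false. With fewer than 3 UMIs of Dcn 525 of 7681 genes were called at day 7, 374 higher and 151 lower, and 192 at day 21, 161 higher and 31 lower.

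Thy1 (CD90), a surface glycoprotein of mesenchymal cells, was at 24.9 and 97.2 CPM at day 0, 1513 and 1133 CPM at day 3, 1592, 1610.4, 1430.3 and 1565 CPM at day 7 and 1077, 1093, 1171 and 1214 CPM at day 21. The day 0 libraries were far below all others. The log2 fold change was 4.34 ± 0.38 (SE), adjusted p = 1.82e-09 at day 3, 4.57 ± 0.36 at day 7 and 4.12 ± 0.36 at day 21. Col18a1, the basement membrane collagen that holds endostatin, was at 99.5 and 77.7 CPM at day 0 and 1172 and 821 CPM at day 3, and changed by 3.51 ± 0.37 (SE), adjusted p = 5.19e-08 at day 3 and 3.54 ± 0.35 at day 7. Des was at 99.5 and 233 CPM at day 0, below every injured library, and changed by 2.22 ± 0.32 (SE), adjusted p = 1.58e-05 at day 7. Acta2 was at 1019.5 and 1574 CPM at day 0 and changed by 1.43 ± 0.26 (SE), adjusted p = 0.000378 at day 7, a call that was lost without day 0 replicate 3 (adjusted p = 0.0526).

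By list, and over genes with at least 10 UMIs at day 0, interstitial matrix genes showed 10 higher and 1 lower of 15 at day 3, 10 and 1 at day 7, and 11 and 0 at day 21, with medians of 2.15 and 2.64 at day 7 and day 21. In the separate fit of the 1105 genes they were 10 and 3, 10 and 4, and 10 and 1. Contractile genes showed 3, 7 and 7 higher of 15 and 0 lower at days 3, 7 and 21. The day 3 share was near that of the 1105 genes (21.2%). In the separate fit 2, 4 and 3 were higher, and 2 were lower at day 3. Of 8 basement membrane genes 3, 4 and 4 were higher and 0 lower, and 1, 2 and 4 in the separate fit. Of 63 oxidative phosphorylation genes 16, 21 and 9 were higher and 0 lower, shares near those of the 1105 genes at day 3 and day 21, and with RLE scaling 7, 8 and 1 were higher. Of 12 hypoxia and glycolysis genes 5, 6 and 2 were higher and 0 lower, and 4, 4 and 0 in the separate fit. The day 21 share was near that of the 1105 genes (17.7%). The glycolytic enzyme gene Gapdh changed by 1.38 ± 0.24 (SE), adjusted p = 0.000175 at day 7. Immediate early and heat shock genes showed 0 higher and 7 lower of 34 at day 3 and 0 and 13 at day 7, and 1 and 1 at day 21. Without day 0 replicate 3, 2 were lower at day 3 and 2 at day 7, and in the separate fit 19 and 22. The heat shock gene Hspa1a changed by -2.26 ± 0.29 (SE), adjusted p = 5.51e-05 at day 7.

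Vtn was at 721 and 622 CPM at day 0 and 131 and 93.0 CPM at day 3, and changed by -2.58 ± 0.37 (SE), adjusted p = 5.21e-05. Both day 0 libraries were above every later library. Hes1 was at 497 and 797 CPM at day 0 and 102 and 285 CPM at day 3, and its change at day 3 (-1.76 ± 0.42 (SE), adjusted p = 0.0145) was lost without day 0 replicate 4 (adjusted p = 0.307). Npy1r was at 124 and 253 CPM at day 0 and changed by -3.21 ± 0.58 (SE), adjusted p = 0.000516 at day 7, which was lost without day 0 replicate 4 (adjusted p = 0.195). Sdpr, now called Cavin2, a protein of caveolae, changed by -4.14 ± 0.48 (SE), adjusted p = 5.31e-06 at day 3, -4.08 ± 0.35 at day 7 and -2.67 ± 0.34 at day 21. Pdgfrb was at 572 and 408 CPM at day 0 and 671 and 514 CPM at day 3, overlapping the later groups. With the main settings it passed in no comparison with day 0.

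Markers of other cells differed between day 0 and later days. The 11 fibroblast and stromal markers summed to 4290.1 and 4351 CPM in the day 0 pericytes, 10146 and 9275 CPM at day 3, 11317 to 17307 CPM at day 7 and 16740 to 38852 CPM at day 21, with Lum and Mfap5 at 0 at day 0. These markers share genes with the interstitial matrix list, among them Col1a1, Col3a1 and Lum, and are not independent of it. Of the interstitial matrix genes, 20 of 51 were higher at day 7 and 27 of 51 at day 21. In cells with fewer than 3 UMIs of Dcn the counts were 19 of 50 and 16 of 50. The 10 endothelial markers summed to 753 and 1771 CPM in the day 0 pericytes against 346 to 391 CPM at day 7, with Esam, which pericytes also express, the most abundant. Kdr, the VEGF receptor of endothelium, was at 66.5 CPM at day 0 and 2.48 CPM at day 7 (-4.63 ± 1.26 (SE), adjusted p = 0.0129), from 6 UMIs at day 0, and was lost without either day 0 library (adjusted p = 0.191 and 0.158). Emcn, another endothelial gene, changed by -2.83 ± 0.68 (SE), adjusted p = 0.00822 at day 21 and was lost without day 0 replicate 4 (adjusted p = 0.501). The 8 lymphocyte markers, led by Ms4a1 with Cd3e, Cd3d and Cd3g at 0, were at 602 CPM in day 0 replicate 3 and 0 in replicate 4. The 12 myeloid markers, led by Cd74 with Adgre1, C1qb and Tyrobp at 0, were at 1919 and 101 CPM. Their part in the day 0 results was not tested.

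Of the 54 cell cycle genes, 6 had at least 10 UMIs at day 0, and 3 of these were higher at day 3 and at day 7. Ube2c and Birc5 were not detected at day 0, with 0 UMIs among 66108, which allows up to 45.4 unscaled CPM (3 UMIs over the group, counting error only). Ube2c was at 343 unscaled CPM at day 3, at least 7.55-fold higher, and at 109 CPM at day 7, at least 2.41-fold higher. Birc5 was at least 3.29-fold higher at day 3 and at least 2.78-fold higher at day 7. At day 21 both were under that limit.

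Day 7 and day 3 differed in 122 genes, 30 higher (0.341%) and 92 lower (1.05%) at day 7. Without day 3 replicate 2 there were 37, of which 20 were lower. The 12 myeloid markers summed to 3399 and 7748 CPM in the day 3 pericytes and 699 to 1675 CPM at day 7, and their part in the lower genes was not tested. Tagln was at 262 and 389 CPM at day 3, below all day 7 libraries, and changed by 1.64 ± 0.24 (SE), adjusted p = 0.000127. The protease inhibitor Serpine2 changed by 1.41 ± 0.24 (SE), adjusted p = 0.00143, Aspn (asporin), which binds collagen, by 1.22 ± 0.24 (SE), adjusted p = 0.005, and fibronectin (Fn1) by 1.64 ± 0.32 (SE), adjusted p = 0.00915. Aspn was not called without day 3 replicate 2 (adjusted p = 0.153), and Fn1 not without day 3 replicate 1 (adjusted p = 0.0974). No cell cycle gene of 54 was called. Among the genes that fell, the macrophage Fc receptor gene Fcgr1 was at 17.1 and 312 CPM in the 2 day 3 libraries and 5.78 CPM on average at day 7. Its call rested on day 3 replicate 2, without which it was not made (adjusted p = 0.757). Of the 18 lists, the most calls in one direction were the 3 lower interferon response genes of 32. Only 23 pericytes entered the day 3 sums.

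Each pericyte change was also set against that of other cells of the same libraries, with an interaction term and the library as a block. Between day 21 and day 7 the pericyte change was higher than the endothelial change for 173 genes (1.61%) and lower for 159 (1.48%) of 10759, and without day 21 replicate 1 for 89 and 97. Rgs16 rose in pericytes and changed by 0.10 in endothelial cells, a difference of 2.39, and Procr changed by -0.04 in endothelial cells, a difference of 2.96. Of 39 interferon response genes the pericyte change was lower for 10 and higher for 0. For the cell cycle it was lower for 3 of 54, and for immediate early genes it was higher for 3 of 41 and lower for 1.

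Against stromal cells, the pericyte change between day 21 and day 7 was higher for 258 genes (2.34%) and lower for 179 (1.62%) of 11032, and without day 7 replicate 4 for 165 and 113. For immediate early genes the pericyte change was higher for 24 of 41 and lower for 1. For cytokine genes it was higher for 13 of 55 and lower for 0. Cck changed by -1.11 in stromal cells, a difference of 5.39, and Fst by -0.15, a difference of 2.34. Tagln changed by -0.91 in stromal cells, a difference of 1.86. For the cell cycle the pericyte change was lower for 9 of 54 genes and higher for 0.

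Against day 0 the pericyte change to day 7 was higher than the endothelial change for 252 genes (2.34%) and lower for 40 (0.372%), and to day 21 for 174 (1.62%) and 23 (0.214%). With RLE scaling the split was 109 and 50 to day 7 and 35 and 24 to day 21, and without day 0 replicate 3 it was 74 and 32, and 47 and 12. Without day 21 replicate 3 the counts to day 21 were 99 and 16. Against the stromal change the counts were 427 (3.87%) and 53 (0.480%) to day 7 and 298 (2.70%) and 26 (0.236%) to day 21. These became 180 and 70, and 118 and 31, with RLE scaling, and 120 and 21, and 104 and 12, without day 0 replicate 3. Without day 0 replicate 4 the stromal counts were 227 and 28 to day 7 and 195 and 11 to day 21. Thy1 changed by 0.65 in stromal cells between day 0 and day 7, a difference of 3.98, and Col18a1 by 0.73, a difference of 3.11. Acta2 changed by 5.05 in stromal cells, so the pericyte change was lower by 3.80 on the log2 scale. Between p7N3 and day 7, the pericyte change was higher than the endothelial change for 1 gene (0.00929%), Ly6d, and lower for 0 (0.0%). Ly6d was at 387 CPM in p7N3 replicate 4 and at most 0.890 CPM in the other 3. Against the stromal change it was higher for Ghr, the growth hormone receptor gene (0.00906%), and lower for Rasl11a (0.00906%), which rose in stromal cells. No gene was higher than the stromal change without day 7 replicate 2, 3 or 4 or without p7N3 replicate 1, 2 or 4. Against the endothelial change no gene was called without day 7 replicate 2, 3 or 4 or without p7N3 replicate 1. Ly6d, Ghr and Rasl11a were named after their values were seen.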

How the data were processed

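Single-cell suspensions were run on 10x 3′ v2 chips, and the deposited values are UMI counts per gene and barcode, which the authors made with Cell Ranger. The methods give build mm10, whereas the submitters' processing notes list GRCh38. All 27998 genes and 19 libraries were used, including 1 file that held all 737280 whitelist barcodes. No doublet caller was run, and leaving out 27 pericytes with over 3 times the median UMIs of their library was an alternative.

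Members and gene lists were chosen with earlier results of these data known. UMIs of pericytes were summed per library (834 cells, 16 libraries, 26573 to 1166096 UMIs) and fitted in 1 model of the 5 groups with edgeR 4.0.16 (TMM factors, filterByExpr, robust quasi-likelihood test, R 4.3.3), with Benjamini-Hochberg adjustment and calls at 0.05. Compared cells were endothelial (2946), stromal (10609) and smooth muscle (1047) cells, picked by fixed markers. Differences of changes used an interaction term with the library as a block. Shares were compared with exact permutation tests in scipy 1.17.1. Floors cover counting error only, and 95% intervals of log2 fold changes come from the SE of the fit over libraries. Scripts were tested on simulated data. Named genes were, per list, 2 to 6 by size of change among genes called or at 100 CPM or more, and per comparison the 6 largest called changes each way among genes without overlap, with 100 CPM or more in the higher group and no lower there than in all cells. Further genes of the lists and pathways were named after their values were seen. Other alternatives were DESeq2 1.42.0, RLE factors, filters, membership rules and left-out libraries. Some results are not reported here.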

Additional observations from a re-analysis of the deposited data

Results flagged for a closer look

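In 5 of 77 sets of 4 libraries, 1 value stood apart from the other 3 by Dixon's criterion, which chance exceeds in about 1 in 20 sets. Des was at 936.4 CPM in day 7 replicate 4, Npy1r at 42.76 CPM in day 7 replicate 1 and Thbs1 at 250.1 CPM in day 7 replicate 4, each the highest of its group. Fmod was at 0.0 CPM in p7N3 replicate 3 and Cd47 at 194.5 CPM in day 21 replicate 2, each the lowest of its group.

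For 18 differences of changes the interaction term passed in edgeR. Between day 21 and day 7, the pericyte change minus the endothelial change was 2.393 for Rgs16, 1.516 for Thbs1, -2.191 for Cox4i2 and 2.964 for Procr on the log2 scale. Minus the stromal change it was 1.863 for Tagln, 2.435 for Rgs16, 1.787 for Npy1r, 2.341 for Fst, 3.189 for Cxcl10, -2.073 for Birc5, 2.091 for Zfp36, 5.39 for Cck and 2.19 for Procr. Between day 7 and day 0, Des differed by 3.757 from the endothelial change, and Thy1 by 3.976, Des by 3.019, Acta2 by -3.804 and Col18a1 by 3.109 from the stromal change. For Cox4i2 the pericyte change itself was -0.822, and the gene did not pass the expression filter in endothelial cells. Des had a UMI in 4.47% of endothelial cells at day 0 and 2.93% at day 7. Both differences from endothelium thus rest in part on low endothelial counts.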

How the results depend on the processing

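For day 3, day 7 and day 21 against day 0, they were 385, 381 and 260 with replicates 1 to 3 only, 334, 382 and 239 at no more than 10% mitochondrial UMIs, 1193, 1369 and 913 with at least 5 pericytes in a library, and 338, 356 and 149 over genes with at least 10 UMIs at day 0. For day 7 and day 21 against day 0, they were 451 and 213 with RLE factors, 454 and 228 with the stricter filter of 10 UMIs, 452 and 226 with DESeq2, and 1312 and 775 after thinning. Day 3 and day 21 against day 0 gave 225 and 185 with only the 2 groups fitted, and day 21 against day 0 gave 192 without pericytes with 3 or more UMIs of Dcn. Day 7 against day 3 gave 288 without a filter, 76 with the stricter filter of 10 UMIs, 77 with 2 groups fitted, 50 with 4 markers and 189 at 10% mitochondrial UMIs. Day 21 against day 7 gave 852 with replicates 1 to 3 only and 632 without any UMI of the exclusion genes. The p7N3 comparison gave 15 without a filter, and 1 each in cells with all 5 markers and with DESeq2. Correlations between libraries of the same replicate number were low, with a median of 0.0355 against 0.000197 for different numbers. Of 12 same-number correlations 2 were over 0.1, and 6 of 12 libraries correlated best with their own number. These values do not settle whether the numbers pair the libraries. With a replicate block the counts were 572, 760, 472, 97 and 1427 and, for p7N3, 1.

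With RLE factors, differences from the endothelial change were 159 and 59 genes and from the stromal change 250 and 149 for day 7 and day 21 against day 0. For p7N3, 0 genes differed from the endothelial change with 4 markers or with the stricter filter of 10 UMIs, and 0 from the stromal change with 4 markers. The Lum change was -0.0069558 in cells with all 5 markers, where the increase was absent (adjusted p = 0.997 in edgeR). The differences in share without any UMI of the exclusion genes were 0.699, 0.744 and 0.0454 percentage points for day 7 and day 21 against day 0 and day 21 against day 7. Among cells without a UMI of Ptprc they were 0.156 for day 3 against day 0, 0.171 for p7N3 and 0.273 for day 21 against day 7, and the last was 0.924 at 10% mitochondrial UMIs.

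Leaving out 1 library gave 275 to 529 called genes for day 3 against day 0, 303 to 798 for day 7 against day 0, 152 to 475 for day 21 against day 0, 37 to 166 for day 7 against day 3, 978 to 1411 for day 21 against day 7 and 0 to 1 for p7N3. Differences from the endothelial change were 106 to 278, 59 to 173, 0 to 1 and 186 to 347 genes for day 7 and day 21 against day 0, p7N3, and day 21 against day 7, and from the stromal change 141 to 463, 116 to 331, 1 to 5 and 278 to 418. The share differed by -0.744 to -0.418 for day 3 against day 0, 1.17 to 1.54 for day 7 against day 0, 2.15 to 2.47 for day 21 against day 0, -0.214 to 0.155 for p7N3, 1.76 to 2.12 for day 7 against day 3 and 0.767 to 1.14 for day 21 against day 7. Where a day 0 or day 3 group was left with 1 library, that library was assumed to vary like the others. At no more than 10% mitochondrial UMIs day 0 and day 3 each had 1 library, so their comparison set 1 library against 1. Day 3 also had 1 library with 4 markers and after thinning, and day 0 had 1 with replicates 1 to 3 only. Where a rule left too few day 0 or day 3 libraries, that comparison was not run. The cause of these shifts was not tested.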
